A study of Caenorhabditis elegans with 28 samples.

Results

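The mRNAs of EBAX-1 and of the Cullin-RING ubiquitin ligase around it were followed in *Caenorhabditis elegans* larvae: 10 genes, taken by name from the 20392 genes of the count table. All 10 were found, and all 10 passed the filter on low counts in every comparison. They were the substrate receptor genes *ebax-1*, *zif-1*, *fem-1* and *zer-1*, the scaffold gene *cul-2*, the Elongin genes *elc-1* and *elb-1*, the RING gene *rbx-1*, and the genes *ubc-12* and *ned-8* of the modification that activates cullins. The poly(A) RNA came from whole larvae of 2 strains, wild type (N2) and HW3527, which carries the deletion allele *ebax-1(tm2321)* on chromosome IV. First-stage larvae synchronized by hatching without food were placed on food at 25 °C, received no treatment, and were harvested each hour from 18 h to 31 h. Each genotype gave 14 libraries, 1 for each hour, so the replication lay in neighbouring hours and not in repeated cultures. The libraries held between 5120921 and 9604238 counts for wild type and between 5701773 and 9304062 for the mutant, and a member took between 26 and 2019 of them.

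A Cullin-RING ligase is built on an elongated cullin. At one end CUL-2 holds the Elongin C and Elongin B adapters, which carry an exchangeable receptor that recognises the substrate. At the other end a RING protein recruits the enzyme that donates ubiquitin, and attachment of the ubiquitin-like protein NED-8 to the cullin switches the ligase on. EBAX-1, the ortholog of mammalian ZSWIM8, is such a receptor. In *C. elegans* it acts in the quality control of the axon guidance receptor SAX-3 and in the turnover of microRNAs, in which an Argonaute protein is the proposed substrate.

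Levels are given as CPM, the count divided by the library size and scaled by the trimmed mean of M values, so that 1 count was worth 0.104 to 0.195 CPM. Each gene was compared in 2 ways. At equal hour, all 14 hours were set against each other. At matched stage, a shift of 3 h allowed for the slower development of the mutant, and the 11 wild-type hours from 18 h to 28 h were set against the mutant hours from 21 h to 31 h. The 2 comparisons share 22 libraries and are not independent. A smooth curve was fitted to each genotype, and the mean difference between the curves was tested with the quasi-likelihood test of edgeR and called at an adjusted p under 0.01. With 1 time course for each genotype, the p-values measure the scatter around these curves, and any other difference between the 2 cultures cannot be told apart from genotype.

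*ebax-1* (WBGene00004140), a protein-coding gene on the plus strand of chromosome IV from 10286955 to 10293013 in WBcel235, the annotation behind all coordinates here, had a pulsing mRNA in wild type and a lower one in the mutant. In wild type it ran from 33.7 CPM at 25 h over a median of 70.1 CPM to 137 CPM at 21 h. In the mutant it ran from 17.9 CPM at 28 h over a median of 25.2 CPM to 48.2 CPM at 24 h. The ranges overlapped, but 11 of the 14 wild-type libraries lay above every mutant library and 10 of the 14 mutant libraries lay below every wild-type one. The count takes in reads from any exon of the gene, and reads outside the deleted stretch still count in the mutant. Its fall therefore checks the genotype labels only in part. Deleted bases give no reads, and the extent of the deletion is not given in the sources. Lost sequence and fewer transcripts therefore cannot be told apart in the mutant CPM of *ebax-1*.

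**Figure D1:**
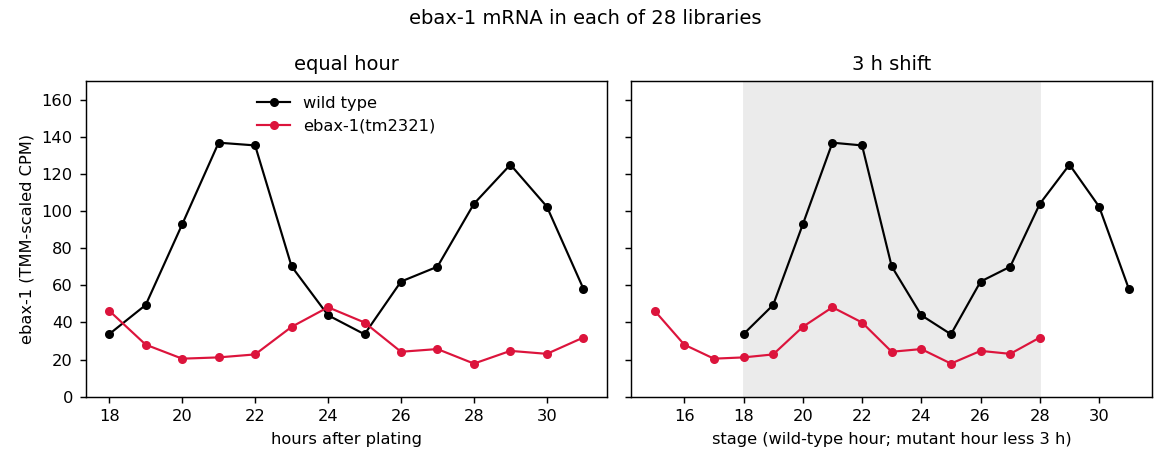
Level of *ebax-1* mRNA (CPM, vertical axis) in each of the 28 libraries, wild type in black and *ebax-1(tm2321)* in red, by hour after plating (left) and with the mutant hours moved back by 3 h (right, the 11 matched stages shaded). The wild-type peaks of 137 CPM at 21 h and 125 CPM at 29 h lie far above the mutant values, and after the shift the mutant curve lies below the wild-type curve at each of the 11 stages.

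At equal hour the order of the genotypes depended on the hour. The mutant stood above wild type in 3 of 14 hours, at 137% of wild type at 18 h, 110% at 24 h and 119% at 25 h, all 3 of them hours near a wild-type trough. It stood at 15.5% of wild type at 21 h and 17.2% at 28 h, when wild type was near its peaks. Averaged over the hours the difference was -1.35 log2 (SE 0.07, adjusted p = 4.6e-11, edgeR), and it changed over the hours (adjusted p = 4.2e-08 for the interaction of genotype and hour). Such an interaction at equal hour was called for 43.9% of all genes.

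At matched stage *ebax-1* was lower in the mutant in 11 of 11 pairs. The fitted difference was -1.29 log2 (SE 0.09, 95% interval -1.49 to -1.09, adjusted p = 6.3e-07, edgeR), which is 40.9% of the wild-type CPM. This is a share of reads, and with part of the gene deleted the share of transcripts is uncertain. The remaining share was largest at the wild-type troughs, with 62.9% at 18 h, 58.5% at 24 h and 53.1% at 25 h. It was smallest near the peaks, with 29.6% at 22 h and 30.7% at 28 h. The interaction of genotype and stage did not pass (p = 0.117, adjusted p = 0.61, edgeR), so these unequal shares were not shown to exceed the scatter.

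The rhythm of *ebax-1* persisted in the mutant. A cosine of period 7 h fitted to wild type reached 0.88 log2 from mid-line to peak, the amplitude (SE 0.08, adjusted p = 6.4e-06, edgeR), and peaked at 21.5 h. The mutant amplitude was 0.54 log2 (SE 0.08, adjusted p = 0.00016) and the peak came at 24.2 h, 2.78 h later (SE 0.21). From trough to peak this was a 3.41-fold change for wild type and a 2.12-fold one for the mutant. The ratio of the mutant to the wild-type amplitude was 0.614, but the test of the difference in rhythm at matched stage was not called (p = 0.0136, adjusted p = 0.22). At an unadjusted p under 0.05 that test picked 13.9% of all genes, and after adjustment 0.0293%. The median amplitude over all genes tested was also smaller in the mutant, at 0.20 log2 against 0.26 log2 in wild type.

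Of the other 3 receptors, 1 was called higher in the mutant and 1 lower at matched stage, calls made for 9.73% and 9.16% of all genes. *zif-1* (WBGene00006977, chromosome III, 9002779 to 9004839, plus strand), whose SOCS-box protein directs the removal of germ-plasm zinc-finger proteins from somatic cells of the embryo, had few reads and climbed with time. Over all hours it ran from 5.02 CPM at 19 h over a median of 13.2 CPM to 26.4 CPM at 30 h in wild type, and from 6.42 CPM at 18 h over 11.5 CPM to 18.0 CPM at 31 h in the mutant. The genotypes overlapped widely, and in both the late hours were the high ones.

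The gradual rise of *zif-1* came to 1.88 log2 over the 13 h sampled in wild type (SE 0.19, adjusted p = 1.4e-06, edgeR) and 1.55 log2 in the mutant (SE 0.15, adjusted p = 2.8e-06). It was the 1 member of 10 called as rising in either genotype, and 0 were called as falling. Among all genes 14.9% were called rising and 6.14% falling for wild type, and 8.31% and 4.49% for the mutant. On p alone the linear term passed for 1 of 10 members in wild type (32.0% of all genes) and for 2 of 10 in the mutant (25.5%), where *rbx-1* joined it with 0.36 log2 (adjusted p = 0.00999). In the matched window alone the change of *rbx-1* was 0.18 log2 and did not pass (adjusted p = 0.18). The germ line grows over the same hours. Of 12 germ-line marker genes, 11 rose gradually in wild type and 11 in the mutant. Their summed level over all hours spanned 606 to 1834 CPM and 466 to 1453 CPM, respectively. In whole animals more cells of a type and more RNA per cell cannot be told apart, and the part of the germ line in the rise of *zif-1* was not tested.

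At equal hour *zif-1* differed between genotypes by -0.13 log2 (SE 0.07, adjusted p = 0.12, edgeR), while at matched stage it was higher in the mutant by 0.25 log2 (SE 0.06, 95% interval 0.11 to 0.38, adjusted p = 0.0087) and in 10 of 11 pairs. From wild-type 18 h to 21 h the mutant held 132% to 142% of the wild-type level, and from 22 h to 27 h it held 97.7% to 119%. At the last stage, 28 h, it held 131%. The call was kept under only 4 of 20 alternative settings. A shift of 2 h in place of 3 h brought the difference to 0.12 log2 (adjusted p = 0.25), and leaving out any 1 of the 11 pairs ended the call. Of the germ-line markers, 1 of 12 was called higher at matched stage and none lower (7 of 12 at an unadjusted p under 0.05 in either direction, which 40.3% of all genes passed), with a median difference of 0.10 log2 against 0.04 log2 over all genes tested, and their part in the difference was not tested.

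*fem-1* (WBGene00001411, chromosome IV, 5533140 to 5537962, minus strand) encodes the ankyrin-repeat receptor that works with FEM-2 and FEM-3 in the removal of the sex-determining factor TRA-1. It ran from 58.5 CPM over a median of 66.5 CPM to 72.3 CPM in wild type and from 46.5 CPM over 58.4 CPM to 64.5 CPM in the mutant. The ranges overlapped, with 12 of 14 wild-type libraries above every mutant library and 7 of 14 mutant libraries below every wild-type one. It was lower in the mutant in 14 of 14 hours, with a mean difference of -0.21 log2 (SE 0.03, adjusted p = 1.7e-05, edgeR).

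At matched stage the difference of *fem-1* was -0.16 log2 (SE 0.03, 95% interval -0.23 to -0.08, adjusted p = 0.0035, edgeR), with the mutant lower in 9 of 11 pairs. This was 10.4% less mRNA, from 79.5% of wild type at 21 h to 103.8% at 25 h. The call held under 14 of 20 alternatives and ended with total-count scaling, with limma, with a replicate block for the matched pair (adjusted p = 0.0105) and without the pair at 21 h, 22 h or 23 h (adjusted p = 0.015 for each). Of its partners, *fem-2* differed by -0.13 log2 (adjusted p = 0.014) and *fem-3* by -0.00048 log2 (SE 0.16), neither of them called at matched stage.

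*zer-1* (WBGene00020762, chromosome III, 881443 to 886793, minus strand), a leucine-rich repeat receptor of the ZYG-11 family, rose and fell in a shallow wave in both genotypes. It ran from 135 CPM at 18 h over a median of 167 CPM to 218 CPM at 29 h in wild type and from 139 CPM at 29 h over 153 CPM to 195 CPM at 18 h in the mutant. The genotypes overlapped throughout. At equal hour its mean difference was not called (-0.06 log2, SE 0.03, adjusted p = 0.12, edgeR), but the difference changed over the hours (adjusted p = 8.2e-07 for the interaction), from 63.5% of wild type at 29 h to 145% at 18 h.

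At matched stage *zer-1* stayed between 91.3% and 109% of wild type in all 11 pairs, with a mean difference of -0.03 log2 (95% interval -0.09 to 0.04, adjusted p = 0.58, edgeR). Its small 7 h wave measured 0.26 log2 from mid-line to peak in wild type (SE 0.04, adjusted p = 0.00069) and 0.24 log2 in the mutant (SE 0.03, adjusted p = 1.6e-05). Both were under the minimum of 0.5 log2 set for a rhythm call. The peaks fell at 22.1 h and 24.9 h, 2.75 h apart (SE 0.22), and came 0.67 h after those of *ebax-1* in wild type (SE 0.21) and 0.64 h after in the mutant (SE 0.22). The test of the rhythm difference at matched stage did not pass (p = 0.999, edgeR).

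**Figure D2:**
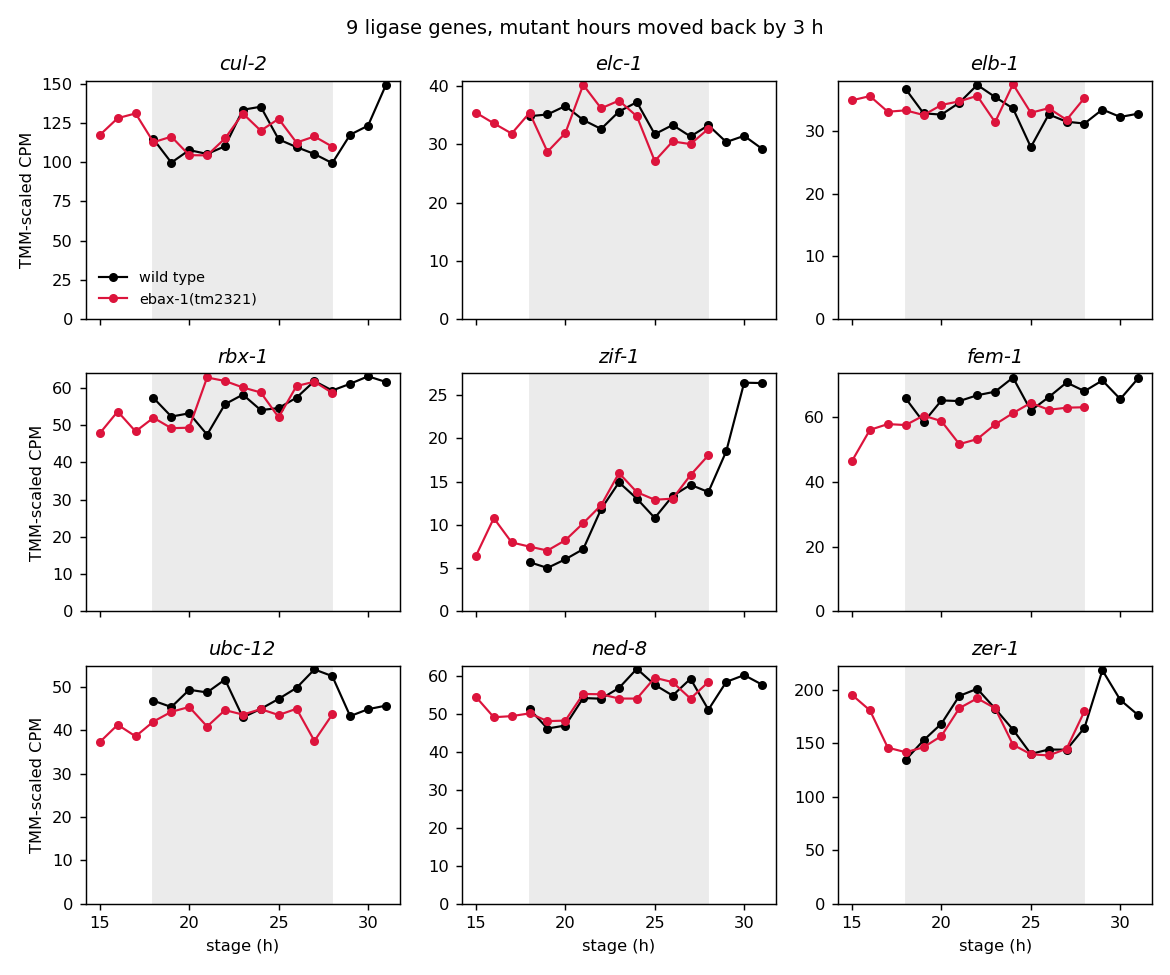
Level of the other 9 genes (CPM, vertical axes from 0) by stage, with wild type in black at its own hour and the mutant in red at its hour less 3 h, and the 11 matched stages shaded. *zer-1* follows 1 wave in both genotypes, *zif-1* climbs in both, and the red curves of *fem-1* and *ubc-12* run under the black ones at 9 and 10 of the 11 matched stages.

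Of the 4 genes of the ligase core, none was called at matched stage (18.9% of all genes) or at equal hour (27.8%), and their matched differences lay between -0.05 and 0.04 log2. *cul-2* (WBGene00000837, chromosome III, 13687269 to 13692683, plus strand), the scaffold, ran from 99.3 CPM over a median of 112 CPM to 149 CPM in wild type and from 104.2 CPM over 116 CPM to 131 CPM in the mutant. Its matched difference was 0.04 log2 (95% interval -0.04 to 0.12, adjusted p = 0.41, edgeR). A wave of 0.19 log2 passed the rhythm test on p alone in wild type (adjusted p = 0.0032). Its peak at 23.8 h came 2.31 h after that of *ebax-1* (SE 0.25, the 2 peaks again taken as independent). The mutant wave of 0.13 log2 did not pass (adjusted p = 0.015), and the difference in rhythm was not called (adjusted p = 0.70). Under 5 alternatives the wild-type wave passed in 3, with an adjusted p of up to 0.070 and an amplitude down to 0.13 log2, and the mutant wave in 1. *cul-2* overlaps the protein-coding gene *cyn-2* on the same strand, so its count may hold reads of both or miss reads of its own.

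*elc-1* (WBGene00001236, chromosome III, 1414238 to 1417190, minus strand) encodes Elongin C, the adapter that binds the cullin and the receptor. It ran from 29.2 CPM over a median of 33.3 CPM to 37.3 CPM in wild type and from 27.1 CPM over 33.2 CPM to 40.2 CPM in the mutant. *elb-1* (WBGene00001235, chromosome III, 11718834 to 11719450, minus strand) encodes Elongin B, its partner, and ran from 27.4 CPM over 32.8 CPM to 37.4 CPM in wild type and from 31.4 CPM over 33.9 CPM to 37.5 CPM in the mutant. The genotypes overlapped for both genes, and neither gene was called, with matched differences of -0.05 log2 (95% interval -0.15 to 0.05) for *elc-1* and 0.03 log2 (95% interval -0.06 to 0.13) for *elb-1*.

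*rbx-1* (WBGene00004320, chromosome V, 9689686 to 9690522, minus strand), the RING subunit, ran from 47.5 CPM over a median of 57.4 CPM to 63.1 CPM in wild type and from 47.9 CPM over 56.2 CPM to 62.8 CPM in the mutant. The genotypes overlapped nearly fully, and the matched difference was 0.04 log2 (95% interval -0.05 to 0.12, adjusted p = 0.54, edgeR). The widest gap was at wild-type 21 h, where the mutant stood at 132% of wild type, and without that pair the difference was -0.01 log2.

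Of the 2 genes of cullin activation, 1 was called at matched stage, where 18.9% of all genes were. *ned-8* (WBGene00003587, chromosome I, 10373373 to 10373862, minus strand), the ubiquitin-like modifier, ran from 46.2 CPM over a median of 55.8 CPM to 61.9 CPM in wild type and from 48.1 CPM over 54.04 CPM to 59.5 CPM in the mutant, with a matched difference of 0.01 log2 (95% interval -0.07 to 0.08, adjusted p = 0.95, edgeR). The genotypes overlapped, and 7 of 11 pairs were higher in the mutant.

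*ubc-12* (WBGene00006707, chromosome I, 11911320 to 11912053, plus strand), the conjugating enzyme that attaches NED-8, ran from 43.0 CPM over a median of 47.0 CPM to 54.1 CPM in wild type and from 37.3 CPM over 43.6 CPM to 45.4 CPM in the mutant. The ranges overlapped, with 9 of 14 wild-type libraries above every mutant library. It was lower in the mutant in 10 of 11 pairs, by -0.16 log2 (SE 0.04, 95% interval -0.25 to -0.08, adjusted p = 0.0053, edgeR) or 10.7% less mRNA, and in 12 of 14 hours at equal hour (-0.17 log2, SE 0.03, adjusted p = 0.00059). The equal-hour call was kept under 2 of 4 alternatives and ended with total-count scaling (adjusted p = 0.012) and with limma (adjusted p = 0.013), which left 2 members called at equal hour.

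The matched call of *ubc-12* was kept under 11 of 20 alternatives. It ended with total-count scaling, with limma, with a 4 h shift, with the replicate block (adjusted p = 0.017), and without the pair at 18 h, 20 h, 25 h, 27 h or 28 h (adjusted p from 0.010 to 0.034). Without the pair at 27 h, where the mutant stood at 69.5% of wild type, the difference was -0.13 log2. The 95% intervals of *ned-8* and *ubc-12* at matched stage did not overlap, but the difference between the 2 genes was not itself tested.

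**Figure D3:**
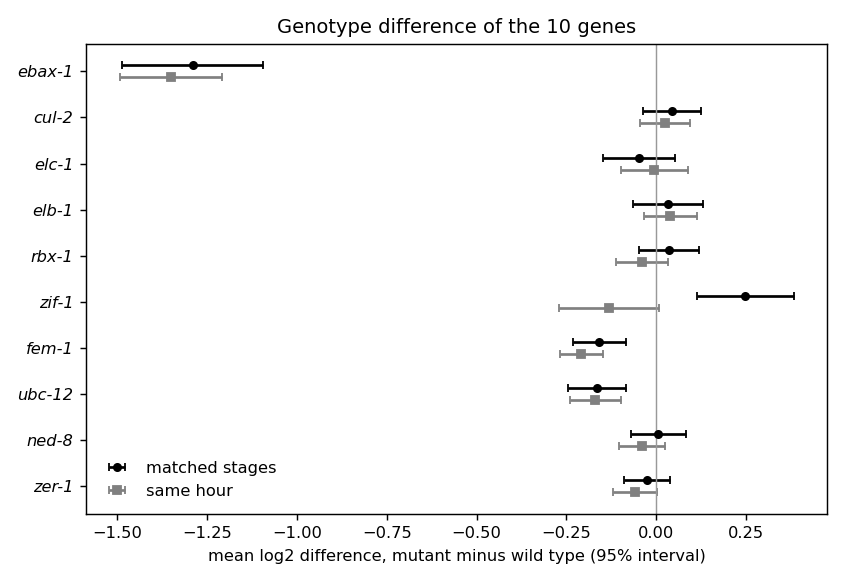
Mean log2 difference, mutant minus wild type, of the 10 genes (horizontal axis, bars are 95% intervals) at matched stage (black circles) and at equal hour (grey squares), with the line at 0. *ebax-1* stands at -1.29 and -1.35, and the other 9 genes lie between -0.21 and 0.25.

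Across the 10 genes, 1 was called higher and 3 lower at matched stage. Of all 14022 genes tested, 18.9% were called, 9.73% as higher and 9.16% as lower. Without *ebax-1*, whose own locus carries the deletion, 3 of the other 9 were called. The median of the 10 differences was -0.01 log2 and that of all genes tested 0.04 log2. At equal hour 3 of 10 members were called, all of them lower. Of 14552 genes 27.8% were called in either direction and 13.6% as lower. For the 6 members not called at matched stage, the 95% intervals allow differences of -9.83% (*elc-1*) to 9.40% (*elb-1*) of the wild-type mRNA.

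When genotype and stage were tested together at matched stage, *ebax-1* was the 1 member of 10 called (adjusted p = 7.5e-05, edgeR), against 5.79% of all genes. The interaction with stage was called for none of the 10 and for 0 of 14022 genes, of which 9.48% had an unadjusted p under 0.05. The study took the 3 h shift from the mRNA timing of these same time courses, so this count is no independent check of it. At equal hour the joint test was called for 6 of 10 members and 60.3% of all genes, and the interaction was called for 4 of the 10 (*ebax-1*, *cul-2*, *zif-1* and *zer-1*), near the share of 43.9% in all genes.

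*ebax-1* was also the 1 member of 10 called rhythmic, in both genotypes. In all genes this call was made for 19.5% in wild type and 18.3% in the mutant. On p alone, 3 of 10 members passed in wild type (*ebax-1*, *cul-2*, *zer-1*) and 3 of 10 in the mutant (*ebax-1*, *zif-1*, *zer-1*), against 30.2% and 32.5% of all genes. The names in these sets depended on the settings, since under 5 alternatives *cul-2* passed in 3 in wild type and *zif-1* in 1 in the mutant (adjusted p up to 0.021). Amplitudes of *elc-1*, *elb-1*, *rbx-1*, *fem-1*, *ubc-12* and *ned-8* lay between 0.01 and 0.13 log2 in the 2 genotypes, and none of these genes passed in the main fit. In wild type *ubc-12* passed on p under 1 of 5 alternatives, and *zif-1* likewise under 1 of 5.

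**Figure D4:**
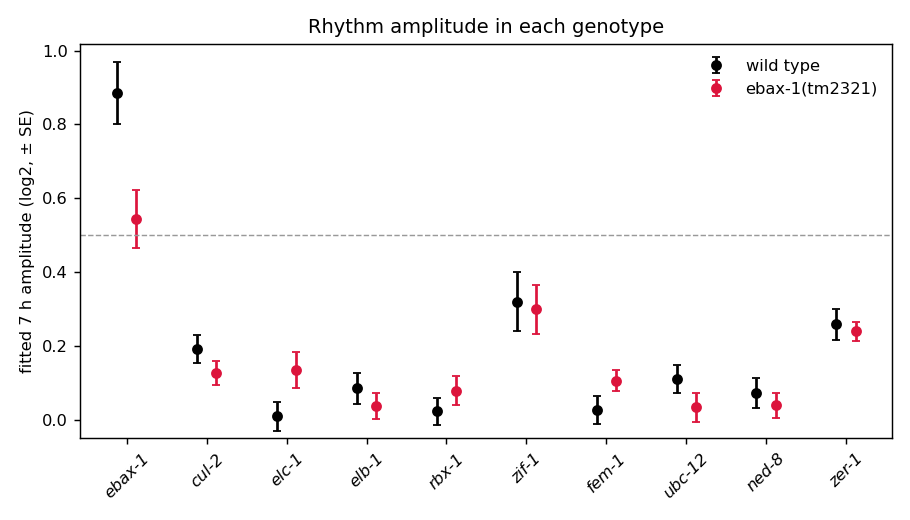
Fitted amplitude of the 7 h cosine (log2, mid-line to peak, bars are 1 SE) of each gene in wild type (black) and *ebax-1(tm2321)* (red), with the call minimum of 0.5 as a dashed line. *ebax-1* alone is above the line, at 0.88 and 0.54, followed by *zif-1* and *zer-1* between 0.24 and 0.32.

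Levels of different genes were set side by side only per kilobase of exon, with exon lengths from WBcel235. In wild type the mean CPM per kb (SD over 14 hours) was 130 ± 11.3 for *ned-8*, 94.6 ± 7.29 for *rbx-1*, 69.3 ± 5.02 for *ubc-12* and 63.7 ± 4.72 for *elb-1*. It was 51.3 ± 7.68 for *zer-1*, 36.8 ± 4.62 for *cul-2*, 28.5 ± 1.66 for *fem-1* and 18.3 ± 1.31 for *elc-1*. The lowest were *ebax-1* with 14.4 ± 6.54 and *zif-1* with 7.51 ± 3.81 CPM per kb. The 4 genes with the least annotated exon stood at the top. The ranges of neighbours in this order overlapped from *ubc-12* through *elb-1* and *zer-1* to *cul-2*, and from *elc-1* through *ebax-1* to *zif-1*. The 2 Elongin genes had like CPM, but 18.3 and 63.7 CPM per kb, since 1819 bases of exon are annotated for *elc-1* and 521 bases for *elb-1*.

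In the mutant *ebax-1* fell to 5.32 ± 1.77 CPM per kb, below *zif-1* at 6.40 ± 2.08. It was the 1 change of rank in the mean apart from *elb-1* (65.3 ± 3.22) passing *ubc-12* (61.5 ± 4.07), and in both of these pairs the ranges overlapped. The exon length used for *ebax-1* in the mutant was that of the intact gene. Deleted bases give no reads, so the mutant level of *ebax-1* per kb and its rank are uncertain.

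**Figure D5:**
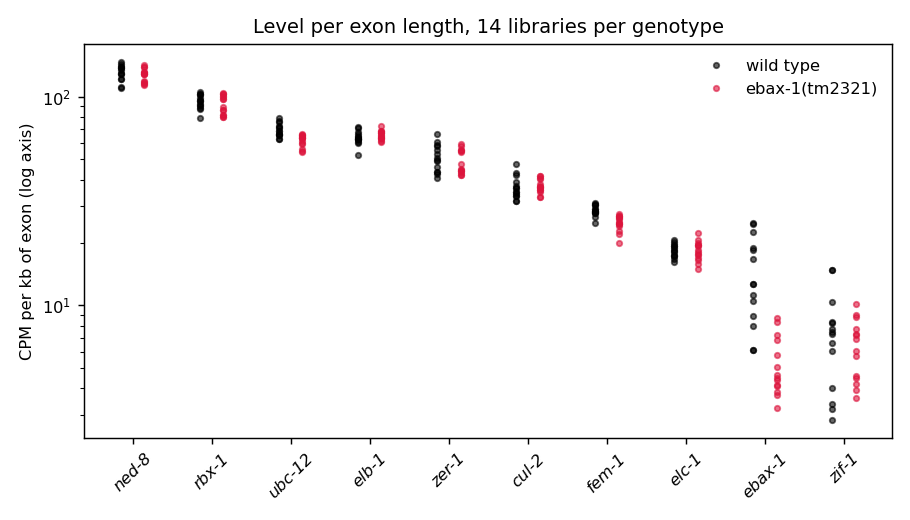
CPM per kb of exon (log axis) of each gene in the 14 wild-type (black) and 14 mutant (red) libraries, ordered by the wild-type mean. The wild-type means span from 130 for *ned-8* to 7.51 for *zif-1*, and the red points of *ebax-1* drop to between 3.23 and 8.70. These red points are divided by the exon length of the intact gene.

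The wider ligase and ubiquitin pathway was read from lists chosen by function. Among the other cullins and the second RING gene, 0 of 6 were called at matched stage by edgeR, and among the other receptors and partners of CUL-2, 0 of 5 tested. In all genes the call was made for 18.9%. At an unadjusted p under 0.05, which 40.3% of all genes passed, these counts were 1 and 2, and limma and DESeq2 called none of them. *cul-6*, a cullin known from the response to intracellular pathogens, was rhythmic, by 0.77 log2 (wild type) and 0.67 log2 (mutant), with a matched difference of -0.01 log2 (SE 0.10, adjusted p = 0.99). Its wild-type peak at 26.0 h lay near the *ebax-1* trough.

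Of 12 genes of neddylation, the COP9 signalosome and CAND1, 1 was called at matched stage, where 18.9% of all genes were. *cif-1*, whose product is shared by the signalosome and the translation factor eIF3, was lower by -0.15 log2 (SE 0.03, adjusted p = 0.0012, edgeR), a call kept under 19 of 20 alternatives. Of 14 adapters and receptors of other cullins, 1 was called, beside the same 18.9% of all genes. *dre-1*, an F-box receptor of developmental timing, was lower by -0.19 log2 (SE 0.05, adjusted p = 0.0092), a call kept under 6 of 20 alternatives. It was also rhythmic, with 0.81 log2 in wild type and a peak at 21.9 h, close to that of *ebax-1*, and 0.69 log2 in the mutant with a peak at 24.6 h. *skr-3*, a Skp1-related adapter gene, was called rhythmic in wild type (0.52 log2), while in the mutant it passed on p with an amplitude just under the minimum (0.499 log2, adjusted p = 1.4e-05). Whether related genes share its reads was not checked.

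Of 10 genes of ubiquitin activation and conjugation, 2 were called at matched stage, near the share of 18.9% in all genes. *ubq-2*, which encodes ubiquitin fused to a ribosomal protein, was lower by -0.17 log2 (SE 0.02, adjusted p = 7.8e-05, edgeR), kept under 19 of 20 alternatives. The polyubiquitin gene *ubq-1* was higher by 0.08 log2 (SE 0.02, adjusted p = 0.0091), a call kept under 3 of 20 alternatives. The ubiquitin genes share near-identical repeats, which makes their counts uncertain.

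Among known or proposed partners and substrates of EBAX-1, 3 of 4 were called. Of them 1 was higher and 2 were lower, beside 9.73% and 9.16% of all genes. The Argonaute genes *alg-1* and *alg-2* stand here for a substrate that is only proposed. *sax-3*, the Robo receptor whose protein EBAX-1 checks, was higher in the mutant with 84.8 against 70.8 CPM (0.26 log2, SE 0.04, adjusted p = 0.00021, edgeR). *hsp-90*, the chaperone that works beside EBAX-1, was lower with 2062 against 2362 CPM (-0.19 log2, SE 0.02, adjusted p = 1.8e-06). Both calls were kept under 20 of 20 alternatives. The Argonaute gene *alg-2* was lower (-0.19 log2, SE 0.04, adjusted p = 0.0035, kept under 14 of 20), while *alg-1* differed by -0.02 log2 (SE 0.04, adjusted p = 0.70). Of 9 known CUL-2 targets in germ line and sex determination, edgeR called 0 at matched stage (2 at an unadjusted p under 0.05, beside 40.3% of all genes), DESeq2 called 0 and limma 2. By their linear term 7 rose gradually in wild type and 6 in the mutant, beside 14.9% and 8.31% of all genes. Of these targets *mex-5* and *htp-3* were also on the list of 12 germ-line markers, of which 11 rose in each genotype. *cki-1*, an inhibitor of the cell cycle, was rhythmic with 0.82 log2 and a peak at 25.6 h in wild type, and with 0.58 log2 and a peak at 21.9 h, repeating each 7 h, in the mutant (adjusted p = 0.00023).

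Tissue markers moved between the genotypes at matched stage as well. All counts here stand beside 9.73% of all genes called higher and 9.16% lower. Of 8 body wall muscle markers 7 were lower in the mutant and none higher, and their summed level was 15565 to 17839 CPM in wild type and 12849 to 14551 CPM in the mutant, with no overlap. Of 8 intestinal markers 5 were lower and 2 higher, of 7 tested epidermal markers 4 were higher, and of 8 neuronal markers 1 was higher and 1 lower. Sperm markers stayed at or under 58.5 CPM in sum at the matched stages, and of the 6, none was called by edgeR, limma or DESeq2 or had an unadjusted p under 0.05. In wild type 5 of the 7 epidermal and 3 of the 8 intestinal markers were called rhythmic, beside 19.5% of all genes. What an error in the 3 h shift adds to their differences was not tested, so they are not a measure of tissue amount. The part of these marker differences in the small falls of *fem-1* and *ubc-12* and in the rise of *sax-3* was not tested.

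The genes whose wild-type course was most like that of *ebax-1* were looked for among 10314 genes, by the root mean square difference of mean-centred log2 CPM over the 14 libraries. The nearest were *magu-4* (0.11), *rol-3* (0.17), *dpy-19* (0.20), *R05D3.9* (0.20) and *gly-6* (0.21). *rol-3* encodes a receptor tyrosine kinase needed for moulting, *dpy-19* a C-mannosyltransferase and *gly-6* a glycosyltransferase. None of these 5 was called at matched stage, with differences between 0.06 log2 for *gly-6* (adjusted p = 0.66, edgeR) and 0.27 log2 for *rol-3* (adjusted p = 0.028). *magu-4* spanned 14.7 to 64.6 CPM in wild-type and 19.2 to 66.0 CPM in mutant libraries. Fitted amplitudes of these 5 genes ran from 0.74 to 1.01 log2 in wild type and from 0.56 to 0.70 log2 in the mutant. Each was smaller in the mutant, but the 5 genes were picked by their likeness to *ebax-1* in wild type alone. The comparison therefore cannot bear on the smaller mutant amplitude of *ebax-1*. Of the other members *zer-1* came nearest, at rank 399, with 0.51, and the rest ranked from 2628 to 7301. All 14 points of such a comparison come from the same libraries.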

How the data were processed

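mRNA was sequenced from 28 libraries, 14 of each genotype. According to the study's methods and the labels, poly(A) RNA went into a stranded kit and was read as pairs. The authors mapped reads to the ce10 build by HISAT2 through QuasR, whose versions were not stated, and counted them on the expected strand over WS220 exons. The deposited counts are raw reads per gene. A second deposited table held log2 values, for which counts had been scaled to the mean total and 8 added. Recomputed, these differed by at most 0.0005, and they served as an alternative. How reads of near-identical genes were counted is not given in the sources used here. One count was worth 0.104 to 0.195 CPM, and 0 pairs of libraries were identical.

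Counts were tested in R 4.3.3 with edgeR 4.0.16 (TMM scaling, filterByExpr with the design, quasi-likelihood F tests, Benjamini-Hochberg adjustment over all genes tested, threshold 0.01). The genotype model held a B-spline (cubic, 6 components) that could differ between genotypes, which left 8 residual degrees of freedom at matched stage. Rhythm fits held 7 h cosine and sine terms beside a linear trend. A rhythm call also needed an amplitude of 0.5 log2, a gradual call a change of 1 log2 over 13 h. The spline and the 3 h shift follow the study's methods. The study derived that shift from mRNA profiles of these same time courses, through genes known to oscillate. The named genes were the 10 members, up to 4 called genes of each list with the largest difference and up to 4 with the largest amplitude, and the 5 genes most like *ebax-1*. Of 123 listed genes 120 were found. Members and lists were chosen with earlier results of these data known. The labels give no replicate numbers, and pairs were formed by stage or hour. Alternatives were other scalings, no filter, limma 3.58.1, DESeq2 1.42.0, shifts of 2 h and 4 h, 4 spline components, a period of 7.4 h, a block for the pair, and leaving out each pair. Scripts were tested on simulated data. Gene symbols matched 19182 of 20392 IDs. Coordinates and exon lengths are of WBcel235, not of the counting build. The counting keeps antisense genes apart, not genes overlapping on 1 strand.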

Additional observations from a re-analysis of the deposited data

How the results depend on the processing

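The fall of *ebax-1* was called under 20 of 20 alternatives at matched stage (-1.40 to -1.18 log2). The number of members called there, 4, was 2 with total-count scaling, 2 with limma, 1 with the replicate block, and 2 to 3 when a pair was left out. With total-count scaling the median of all genes moved from 0.04 to 0.08 log2, and the share of higher calls from 51.5% to 68.5% (71.1% with limma).

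Of all genes, 812 were called when genotype and stage were tested together at matched stage, 367 with limma, 3321 with a 2 h shift, 2701 with a 4 h shift and 298 to 800 without a pair. The interaction at matched stage, called for 0 genes, was called for 1 with total-count scaling, 1 without the filter, 1535 and 1550 with shifts of 2 h and 4 h, and 0 to 13 without a pair. At matched stage the replicate block called 2303 genes in place of 2650, and at equal hour 1679 in place of 4047. Gradual genes in wild type were 1314 in the matched window in place of 2951, and differences in rhythm 19 with a 7.4 h period and 2 with limma in place of 4. Leaving out a pair gave 1887 to 2509 genes with a mean difference at matched stage.

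Differences near 0 changed sign. At matched stage *zer-1* was 0.020 log2 with total-count scaling and with limma, *ned-8* -0.0056 without the filter and -0.021 with a 2 h shift, and *rbx-1* -0.0028 with a 2 h shift. Without a pair *rbx-1* ran from -0.0097 (21 h) to 0.052 and *ned-8* from -0.013 to 0.021 log2, with *ned-8* at -0.0055 (21 h), -0.0032 (22 h and 25 h), -0.0080 (26 h) and -0.013 (28 h). At equal hour total-count scaling and limma gave *elc-1* 0.049 and 0.045, *rbx-1* 0.014 in both and *ned-8* 0.014 and 0.013 log2. In the matched window the gradual change of *ebax-1* in wild type was -0.16 log2, and in the mutant that of *elb-1* -0.00048 and of *ubc-12* -0.041 log2. The causes were not tested. *zif-1* had as few as 26 counts in a library.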
